A study of Mus musculus with 54 samples.

Results

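The retina of rd1 mice was compared with that of wild-type (WT) mice at postnatal day 11 (PN11), an age within the known period of rod loss in this model. The members were the 6 arrays whose titles give PN11, 3 from WT and 3 from rd1 mice, out of 54 arrays in all, and every gene with an annotated symbol was read on them (18193 genes). Both groups were neural retina of C3H mice, dissected 11 days after birth: the WT group carried 2 wild-type alleles at the rd1 locus and the rd1 group carried the rd1 allele on both chromosomes. The labels name no treatment. The labels call the arrays biological replicates without giving the number of animals behind each. The p-values therefore rest on the spread between arrays of the same genotype and age, estimated over the 50 arrays fitted, and not on a known number of animals. C3H mice commonly carry the rd1 allele, and how the WT line was derived is not given in the sources used here. Arrays of PN9 (3 per genotype), PN12 (2 per genotype) and PN13 (3 per genotype) were used to show where PN11 differs from the neighbouring ages.

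The rd1 allele is a mutation of Pde6b, which encodes the beta subunit of the rod cGMP phosphodiesterase. In rods this enzyme lowers cGMP after light is absorbed, and without it cGMP and calcium entry through the cGMP-gated channel are known to rise before the rods die. Immediate early genes are transcribed within minutes of calcium entry, growth factor signals or stress, and many of them encode transcription factors. Heat shock genes encode chaperones that are induced by misfolded protein, and a further set of genes is induced when translation is slowed by stress of the endoplasmic reticulum or by shortage of amino acids. Müller glia and microglia, the supporting and the immune cells of the retina, are known to react to photoreceptor injury.

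All values are log2 intensities, differences are rd1 minus WT on that scale, and the error after ± is the standard error (SE) of the fit, with n = 3 arrays per genotype at PN11. A gene is called when its adjusted p (limma, Benjamini-Hochberg over all 18193 genes, 2-sided) is under 0.05. "Higher" and "lower" describe the rd1 arrays against the WT arrays of an age. Detection calls were not used, so a dim level was not shown to be above background, and folds are ratios of intensity. The intensity of a probe set also depends on its sequence, so levels are compared between arrays and never between genes.

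The PN11 arrays were close to each other: within a genotype, Pearson's r over genes was between 0.996 and 0.998, and the SD of the log2 difference between replicates was between 0.131 and 0.187. Genes are not independent replicates, and the r is a description. Rod markers were bright on all 6 arrays (mean log2 intensity of the 19 measured rod genes 11.78 to 12.14), as neural retina should show. Lens genes stood apart on 2 arrays: the mean of the 16 measured crystallins and other lens genes was 7.71 and 7.54 in WT replicates 2 and 3 and 6.33 to 6.52 on the other 4 arrays. Interferon response genes were also uneven, with a mean over 20 genes of 7.39 to 7.58 in WT replicates 2 and 3 and rd1 replicate 3, and of 6.91 to 6.99 on the others. The Y-linked gene Eif2s3y read 3.75 in rd1 replicate 3 and 6.93 to 8.68 elsewhere, while Xist read 12.77 to 13.48 on all 6 arrays. No gene of the lens, interferon or sex-linked lists was called at PN11 with limma, and 0, 1 and 0 of their members had an unadjusted p under 0.05. The part of these differences in the results was not tested.

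Pde6b, the gene that carries the mutation, checks the labels. Its log2 intensity was 13.12, 13.13 and 13.03 on the WT arrays and 11.72, 11.67 and 11.57 on the rd1 arrays. The groups lie far apart and the spread within each is small. The difference was -1.44 ± 0.17, a 2.71-fold lower level in rd1 (adjusted p = 2.36e-07, limma). It was of similar size at PN9 (-1.60), PN12 (-1.42) and PN13 (-1.79), and its change from PN9 to PN11 did not pass the threshold (0.17, adjusted p = 0.971).

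At PN11, 107 genes were called, 0.588% of those tested: 79 were higher in rd1 (0.434%) and 28 were lower (0.154%). At an unadjusted p under 0.05 there were 1000 genes. On all 107 called genes the 3 rd1 arrays lay wholly above or wholly below the 3 WT arrays. Over all genes tested, 7.14% had every rd1 array above every WT array and 4.97% had every rd1 array below. Most differences were modest: the median was 0.43 among the genes called higher and -0.47 among those called lower, and 9 of the higher and 2 of the lower genes differed by at least 2-fold. Replicate 1 was the highest of the rd1 arrays for 62 of the 79 higher genes, against 9 for replicate 2 and 8 for replicate 3. Without rd1 replicate 1, 57 genes were called, 40 higher and 17 lower, and all 57 were among the 107. When each array was centred on the amacrine and ganglion cell genes instead, 53 were called higher and 41 lower.

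**Figure D1:**
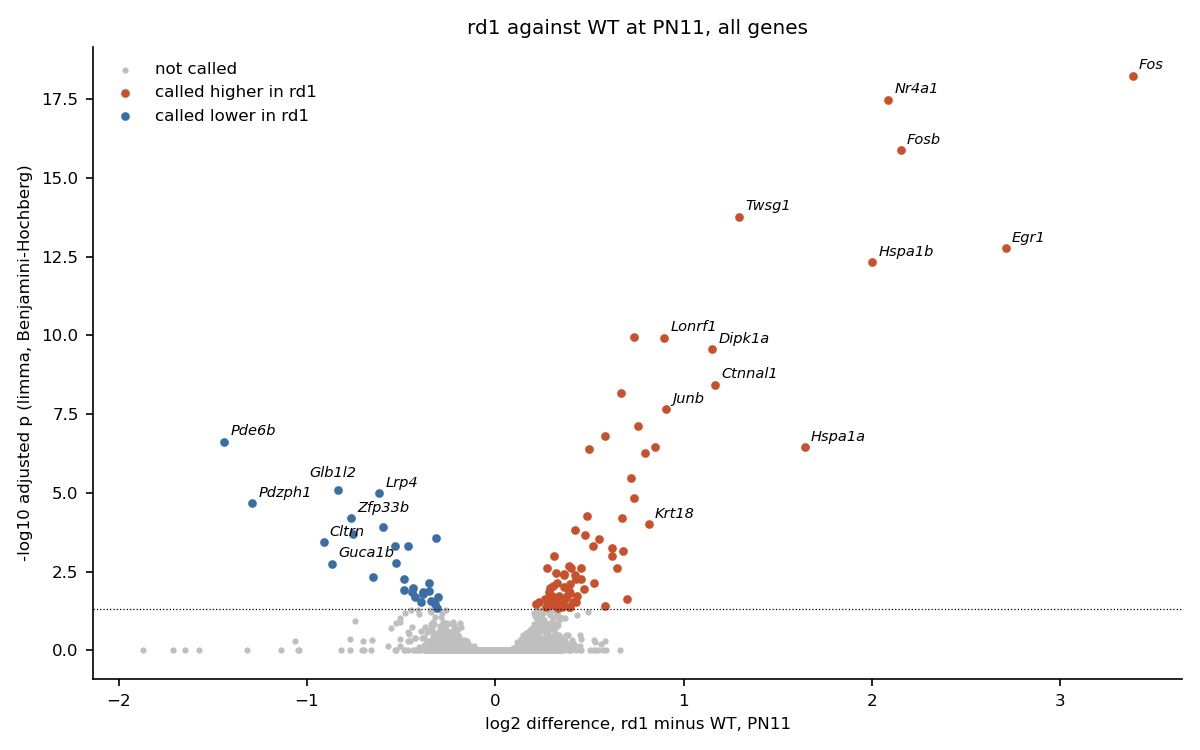
Each point is 1 of 18193 genes at PN11, with the log2 difference (rd1 minus WT) on the horizontal axis and -log10 of the adjusted p on the vertical axis; the dotted line is an adjusted p of 0.05. The 79 genes called higher reach a log2 difference of 3.38 (Fos), and the 28 called lower reach -1.44 (Pde6b).

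Immediate early genes gave the largest rises. Of 33 measured genes of this list, 9 were called higher and 0 lower (background 0.434% and 0.154%): Fos, Egr1, Fosb, Nr4a1, Junb, Dusp1, Ier2, Egr2 and Atf3. The median difference over the list was 0.17 against 0.01 over all genes. Fos, Fosb and Junb encode subunits of the AP-1 transcription factor, Egr1 and Egr2 encode zinc-finger transcription factors, Nr4a1 is an orphan nuclear receptor, and Atf3 is a stress-induced transcription factor.

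Fos read 9.07, 8.84 and 8.18 on the WT arrays and 12.18, 12.16 and 11.90 on the rd1 arrays. The WT arrays spread over almost a log2 unit, and even the brightest of them lay far below every rd1 array. The difference was 3.38 ± 0.16, or 10.4-fold (adjusted p = 5.67e-19, limma). Egr1 had the same order of WT arrays, at 10.18, 9.86 and 9.17, against 12.38, 12.48 and 12.49 in rd1. This was a difference of 2.71 ± 0.19, or 6.54-fold (adjusted p = 1.67e-13). Fosb was dim in WT, at 5.14, 5.25 and 5.35, and read 7.65, 7.38 and 7.17 in rd1, with no overlap between the groups (2.15 ± 0.12, adjusted p = 1.28e-16); it is among the dimmest 30% of genes, and no fold is given because the WT level was not shown to be above background. Nr4a1 was tight within WT, at 9.19, 9.14 and 9.06, and read 11.43, 11.12 and 11.09 in rd1, a 4.25-fold rise (2.09 ± 0.10, adjusted p = 3.25e-18).

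The remaining called members rose less. Junb went from 6.52, 6.37 and 6.33 in WT to 7.51, 7.34 and 7.09 in rd1 (0.91 ± 0.10, 1.88-fold, adjusted p = 2.14e-08, limma). Ier2 went from 8.46, 8.36 and 8.46 to 8.99, 9.30 and 9.27 (0.76 ± 0.08, 1.69-fold, adjusted p = 7.37e-08). In both genes the groups were separated by more than the spread within either. Egr2 and Atf3 lay near the threshold: Egr2 read 4.80, 4.88 and 4.74 in WT and 5.37, 4.96 and 5.38 in rd1, and Atf3 read 6.35, 6.44 and 6.38 in WT and 6.95, 6.69 and 6.82 in rd1. Both rose by 0.43 ± 0.10 (adjusted p = 0.0193 and 0.0298), rd1 replicate 2 was the lowest rd1 array in each, just above the highest WT array in Egr2 and further above it in Atf3. Each call was lost under 7 of the alternatives tried, among them leaving out rd1 replicate 1 or rd1 replicate 3. Other members of the list did not pass the test: Jun, the AP-1 partner of Fos, differed by 0.01, Arc by -0.02, Egr3 by -0.02, Nr4a2 by 0.12 and Npas4 by 0.24.

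**Figure D2:**
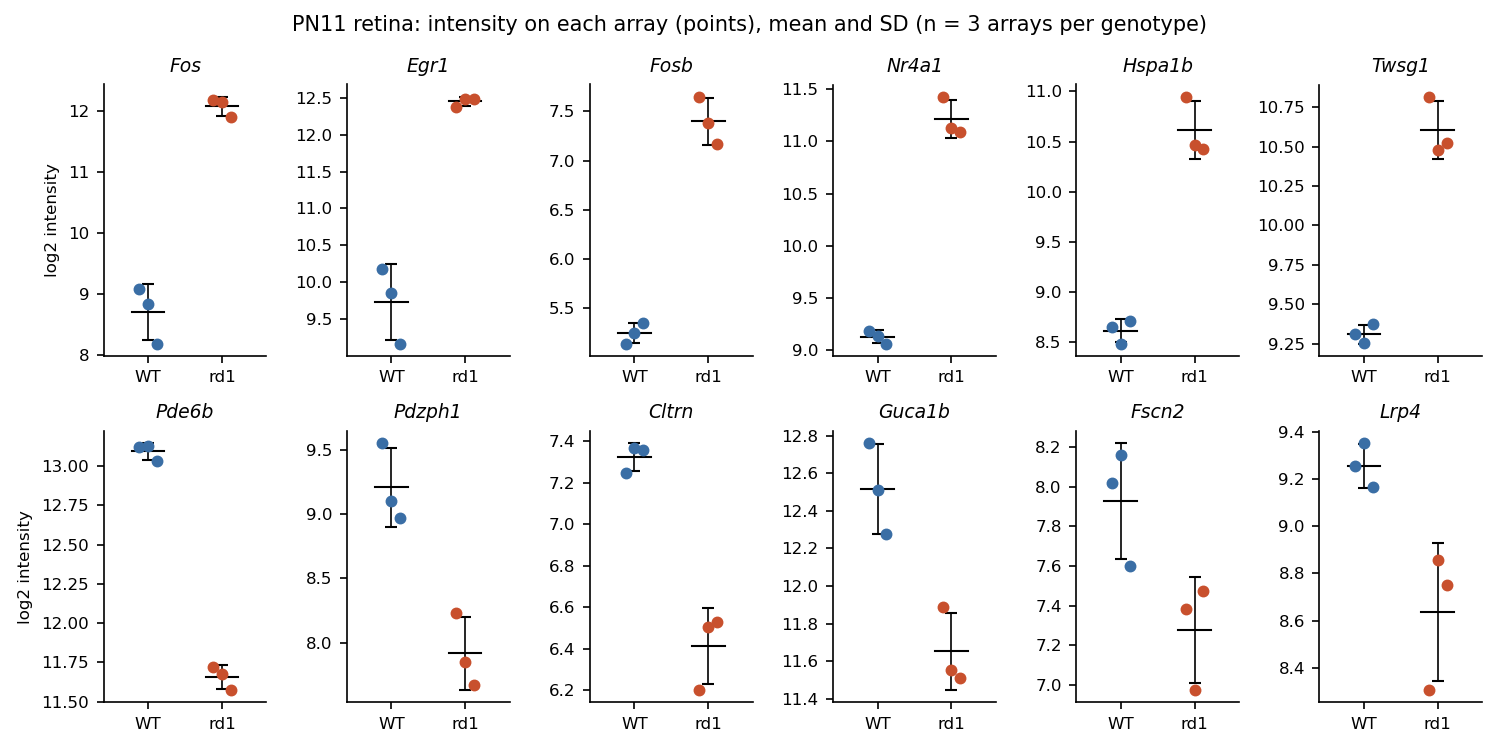
Points are the log2 intensities of the 3 WT and 3 rd1 arrays of PN11 for 12 genes, with the mean (bar) and SD (error bar); each panel has its own vertical scale, which does not start at 0. In every panel the rd1 arrays lie wholly above (top row: Fos, Egr1, Fosb, Nr4a1, Hspa1b, Twsg1) or wholly below (bottom row: Pde6b, Pdzph1, Cltrn, Guca1b, Fscn2, Lrp4) the WT arrays.

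Promoter sequences of these genes were examined because the cAMP and calcium response element, in its full form TGACGTCA and its core TGACG, is a known control site of Fos and its relatives. The windows are the 250 bases before the RefSeq transcription start (GRCm38.p6), and both strands were searched. These are 2 of 8 motifs searched. Among the others, the CArG box (CC and GG around A or T bases) was found in 3 of 26 immediate early genes with a promoter window, against 1.43% of tested genes. GCGNGGGCG was found in 11 of these 26, against 8.59% of tested genes. Of the 7 called members with a window, 1 (Egr2) holds the CArG box in it and 2 (Fosb and Nr4a1) hold GCGNGGGCG. Egr1 and Ier2 have no window here, and bases further upstream were not searched. A gene without a match may therefore hold the motif elsewhere. Other motifs of the 8 were not more frequent among the genes called higher. The AP-1 motif was in 4 of 63 genes called higher (6.35%), against 6.70% of tested genes. It was in 0 of the 26 immediate early genes. The heat shock element was in 0 of the 63 and in 0 of 3 called heat shock genes, against 0.484% of tested genes. Another motif was also in 0 of the 63, against 2.19% of tested genes. TGACG lies inside TGACGTCA, so every gene with the full site also counts for the core. Of the 9 called immediate early genes, 7 matched an entry, and TGACG was found in all 7 (Atf3, Dusp1, Egr2, Fos, Fosb, Junb and Nr4a1). It was found in 25.9% of the tested genes that have a promoter in the table, in 26 of 63 genes called higher (41.3%) and in 7 of 22 genes called lower (31.8%). In the whole immediate early list, called or not, 17 of 26 genes hold the core. The full site was found in Dusp1 alone of the 7, and in 2.50% of tested genes. Below are the windows of the 4 largest rises among the 7, 5′ to 3′ on the strand of the gene, with TGACG or its reverse complement CGTCA in capitals: Fos is chr12:85473640-85473889 on the plus strand, Fosb chr7:19310046-19310295 on the minus strand, Junb chr8:84978749-84978998 on the minus strand and Nr4a1 chr15:101266596-101266845 on the plus strand.
Fos: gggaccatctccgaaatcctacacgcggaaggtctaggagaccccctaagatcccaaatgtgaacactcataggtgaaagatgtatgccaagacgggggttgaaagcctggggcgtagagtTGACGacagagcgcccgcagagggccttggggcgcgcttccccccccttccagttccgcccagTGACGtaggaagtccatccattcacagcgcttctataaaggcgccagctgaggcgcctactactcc
Fosb: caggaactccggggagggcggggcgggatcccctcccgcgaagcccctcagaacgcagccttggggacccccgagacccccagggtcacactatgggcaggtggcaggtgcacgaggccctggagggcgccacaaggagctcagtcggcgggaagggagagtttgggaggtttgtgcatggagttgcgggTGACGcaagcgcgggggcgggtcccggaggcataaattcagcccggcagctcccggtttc
Junb: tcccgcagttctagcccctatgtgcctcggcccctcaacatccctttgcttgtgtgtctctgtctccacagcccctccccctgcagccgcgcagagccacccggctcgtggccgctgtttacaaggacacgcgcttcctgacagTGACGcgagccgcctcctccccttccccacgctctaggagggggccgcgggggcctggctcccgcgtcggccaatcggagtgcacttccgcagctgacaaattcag
Nr4a1: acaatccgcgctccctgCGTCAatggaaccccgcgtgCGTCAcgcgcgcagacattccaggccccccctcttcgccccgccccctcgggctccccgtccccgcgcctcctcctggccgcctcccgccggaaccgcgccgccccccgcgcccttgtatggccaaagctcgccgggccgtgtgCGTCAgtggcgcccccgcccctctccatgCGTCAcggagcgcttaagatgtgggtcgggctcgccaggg
Counted back from the start site, the core began at base 129 and base 66 of Fos, base 60 of Fosb and base 106 of Junb. Nr4a1 holds it 4 times, all in the reverse orientation. A match is a description of these letters, and binding was not measured.

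Known negative regulators of this response were also called higher. Dusp1 and Dusp5 encode phosphatases that switch off mitogen-activated protein (MAP) kinases. They were the 2 members called, both higher, of 17 measured in the MAP kinase feedback list (median 0.07, background 0.434%). Dusp1 read 8.68, 8.69 and 8.59 in WT and 9.63, 9.65 and 9.24 in rd1 (0.85 ± 0.10, adjusted p = 3.44e-07, limma). Dusp5 was among the most even genes, at 9.66, 9.62 and 9.67 in WT and 10.14, 10.15 and 10.16 in rd1, a 1.41-fold rise (0.50 ± 0.06, adjusted p = 3.95e-07). Nab2, a co-repressor that binds Egr1, read 7.46, 7.34 and 7.26 in WT and 8.15, 8.19 and 8.12 in rd1 (0.80 ± 0.10, 1.74-fold, adjusted p = 5.27e-07). In the list of activity-regulated late response genes, 1 of 23 was called and it was lower (background 0.154%): Trib1, a pseudokinase, at -0.34 ± 0.08 (adjusted p = 0.028, limma). Its call was lost under 7 alternatives. Csrnp1 (0.43, adjusted p = 0.0771) and Sik1 (0.24, adjusted p = 0.986) of the same list were not called.

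Among 17 measured heat shock genes, 3 were called, all higher: Hspa1b, Hspa1a and Hsph1 (list median 0.09, background 0.434%). Hspa1a and Hspa1b encode the inducible Hsp70 chaperone. Hspa1b read 8.64, 8.48 and 8.70 in WT and 10.95, 10.46 and 10.43 in rd1, a 4-fold rise (2.00 ± 0.14, adjusted p = 4.71e-13, limma). Hspa1a read 7.76, 7.40 and 7.36 in WT and 9.64, 9.08 and 8.73 in rd1, a 3.12-fold rise (1.64 ± 0.20, adjusted p = 3.44e-07). Replicate 1 was the brightest array of each genotype in Hspa1a, and the groups did not overlap. The 2 genes are near-identical copies, and a probe set of 1 of them can read transcripts of the other, so their rises are not independent. Hsph1, a large co-chaperone of Hsp70, read 10.27, 10.06 and 10.08 in WT and 10.62, 10.48 and 10.47 in rd1 (0.39 ± 0.07, adjusted p = 0.00209). Other chaperone genes were not called: Hspa8 differed by 0.09, Dnajb1 by 0.04 and Hsp90aa1 by -0.03.

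The likeness of the Hsp70 genes extends to their promoters, which are shown to let the copies be compared. The 2 windows of 250 bases, Hspa1a at chr17:34972157-34972406 and Hspa1b at chr17:34959239-34959488, both on the minus strand (GRCm38.p6), are identical at 247 positions, and the 3 that differ are in capitals.
Hspa1a: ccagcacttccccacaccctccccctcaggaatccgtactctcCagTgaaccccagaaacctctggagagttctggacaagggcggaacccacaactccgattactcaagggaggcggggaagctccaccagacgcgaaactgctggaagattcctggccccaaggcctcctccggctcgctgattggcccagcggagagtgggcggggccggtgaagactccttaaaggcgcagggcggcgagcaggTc
Hspa1b: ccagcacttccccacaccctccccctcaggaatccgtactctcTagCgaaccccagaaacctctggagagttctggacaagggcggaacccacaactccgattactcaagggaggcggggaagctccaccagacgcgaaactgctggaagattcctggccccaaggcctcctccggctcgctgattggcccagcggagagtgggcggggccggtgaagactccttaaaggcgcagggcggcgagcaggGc

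A few endoplasmic reticulum stress and amino acid response genes rose, by less than the genes above. Of 25 measured genes of endoplasmic reticulum stress, 4 were called higher and 0 lower (median 0.10): Eif2ak3, Chac1, Asns and Trib3. Of 19 measured amino acid response genes, 4 were called higher and 0 lower (median 0.18): Asns, Slc7a3, Slc7a1 and Slc3a2. The background was 0.434% higher and 0.154% lower for both lists. Asns belongs to both lists. Eif2ak3 encodes PERK, the kinase of the endoplasmic reticulum that slows translation; it read 9.20, 9.28 and 9.15 in WT and 9.90, 9.77 and 9.71 in rd1 (0.58 ± 0.07, 1.50-fold, adjusted p = 1.62e-07, limma). Chac1, which degrades glutathione, read 7.50, 7.49 and 7.57 in WT and 8.37, 7.82 and 7.93 in rd1 (0.52 ± 0.09, adjusted p = 0.000502). Asparagine synthetase, Asns, read 9.18, 9.10 and 9.10 in WT and 9.69, 9.48 and 9.48 in rd1 (0.43 ± 0.07, adjusted p = 0.000148). The WT arrays of all 3 genes lay close together, and rd1 replicate 1 was the highest array in each.

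Trib3, a pseudokinase induced by the same stress, differed by 0.42 ± 0.08 (adjusted p = 0.0042, limma). The transporters of cationic amino acids Slc7a3 (0.40 ± 0.09) and Slc7a1 (0.31 ± 0.07) and the shared transporter subunit Slc3a2 (0.31 ± 0.07) were higher by 1.24-fold to 1.32-fold. Other well-known members were not called: the transcription factor Ddit3 differed by 0.32 (adjusted p = 0.143), Atf4 by 0.12, Xbp1 by 0.20 and the chaperone Hspa5 by 0.12. The count of called amino acid response genes fell from 4 to 1 without WT replicate 3 or without rd1 replicate 1, and to 2 without rd1 replicate 3. It was 2 after centring and 6 when a gene's probe sets were averaged. In a fit of the PN11 arrays alone it was 1, and that of endoplasmic reticulum stress genes was 2.

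Chac1 and Asns share a further sequence, the composite element TGATGNAA that binds Atf4 with its C/EBP partners, and their windows are shown for it. It was found on either strand in 4 of 63 genes called higher (6.35%: Asns, Atf3, Chac1 and Serpini2). The same element was in 2 of 22 genes called lower (9.09%: Abca13 and Pde6b) and in 2.84% of tested genes. It is in capitals below, for Chac1 at chr2:119350992-119351241 on the plus strand and Asns at chr6:7693210-7693459 on the minus strand (GRCm38.p6).
Chac1: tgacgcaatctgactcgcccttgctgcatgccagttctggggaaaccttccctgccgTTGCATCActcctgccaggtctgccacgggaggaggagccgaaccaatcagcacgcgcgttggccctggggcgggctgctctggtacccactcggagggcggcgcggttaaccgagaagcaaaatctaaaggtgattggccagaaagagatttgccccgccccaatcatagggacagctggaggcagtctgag
Asns: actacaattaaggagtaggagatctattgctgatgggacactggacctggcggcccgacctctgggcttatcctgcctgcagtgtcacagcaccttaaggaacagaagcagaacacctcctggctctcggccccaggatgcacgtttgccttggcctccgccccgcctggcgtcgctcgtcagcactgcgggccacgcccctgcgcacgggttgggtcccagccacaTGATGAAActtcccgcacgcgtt
In Asns the element ends 16 bases before the start site; in Chac1 it lies in the reverse orientation, between 193 and 186 bases before it. In the amino acid response list as a whole 6 of 17 genes hold it, of which Asns alone was called.

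Several of the largest rises lie outside these lists. Twsg1, a secreted protein that binds bone morphogenetic proteins, read 9.31, 9.25 and 9.37 in WT and 10.81, 10.48 and 10.52 in rd1, a 2.45-fold rise (1.30 ± 0.08, adjusted p = 1.68e-14, limma). Ctnnal1, a relative of alpha-catenin, read 7.16, 7.02 and 7.29 in WT and 8.54, 8.24 and 8.19 in rd1 (1.17 ± 0.12, 2.25-fold, adjusted p = 3.67e-09). Neither gene was called at PN9, where Twsg1 differed by 0.09 and Ctnnal1 by 0.27. Lonrf1, which has the domain of Lon proteases, read 9.01, 9.10 and 8.96 in WT and 10.14, 9.73 and 9.88 in rd1 (0.90 ± 0.08, 1.86-fold, adjusted p = 1.17e-10). Krt18, a keratin of intermediate filaments, read 7.32, 7.73 and 7.63 in WT and 8.62, 8.37 and 8.14 in rd1 (0.81 ± 0.13, adjusted p = 9.7e-05). Krt18 had the widest WT spread of these, and its arrays still did not overlap.

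Further rises included those of Sik2, a salt-inducible kinase (0.74 ± 0.06, adjusted p = 1.1e-10, limma), Zfp472 (0.73) and Tagln2, an actin-binding protein (0.72). Smaller ones were those of Stard10, a lipid transfer protein (0.67), and Rfx2, a transcription factor of ciliary genes (0.67). Pcolce, an enhancer of collagen processing, rose by 0.65, and Lrrc2 and Tubb6 by 0.62 each. The dimmer probe sets of Rfx2 differed by 0.35, 0.04 and 0.02. For Sik2 the WT arrays read 10.03, 10.07 and 10.02 and the rd1 arrays 10.91, 10.74 and 10.67. Stard10 was similarly even, at 9.54, 9.48 and 9.38 against 10.26, 10.06 and 10.09. Pcolce was not: it read 6.06, 5.96 and 6.33 in WT and 7.14, 6.70 and 6.44 in rd1, and without rd1 replicate 1 it was not called. The smallest called rise was that of Dip2b (0.22 ± 0.05, adjusted p = 0.0332), which was lost under 10 alternatives.

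Glial and immune genes rose in part. In the reactive glia list 5 of 27 measured genes were called higher and 0 lower (median 0.10). In the microglia and macrophage list 4 of 27 were called higher and 0 lower (median 0.12). Of all genes, 0.434% were called higher and 0.154% lower. Among reactive glia genes, the transcription factors Cebpd (6.49, 6.59 and 6.63 in WT; 7.59, 7.18 and 6.97 in rd1) and Stat3 (9.37, 9.51 and 9.45 in WT; 10.12, 9.87 and 9.78 in rd1) were higher by 0.68 ± 0.12 and 0.48 ± 0.08 (adjusted p = 0.000696 and 0.000218, limma). Cebpb read 5.65, 5.53 and 6.14 in WT and 6.93, 6.32 and 6.16 in rd1 (0.70 ± 0.16, adjusted p = 0.0233). Its lowest rd1 array lay just above its highest WT array. Edn2, endothelin 2, a signal that stressed photoreceptors are known to release, read 5.44, 5.34 and 5.14 in WT and 6.39, 5.70 and 5.58 in rd1 (0.58 ± 0.14, adjusted p = 0.0394). Anxa2 was the last of the 5 (0.40 ± 0.08). Gfap, the intermediate filament that marks reactive Müller glia, was high on 1 array: it read 7.27, 7.29 and 7.29 in WT and 8.34, 7.41 and 7.33 in rd1, and was not called (0.41, adjusted p = 0.809). None of the 22 measured Müller glia markers was called, and 3 had an unadjusted p under 0.05; the nearest was Vim, vimentin (0.24, adjusted p = 0.0531).

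The called microglial genes were Cd68, a lysosomal protein of phagocytes, Ly86, Tyrobp, the adaptor of Trem2, and C1qc, a complement subunit. Cd68 read 6.49, 6.65 and 6.61 in WT and 7.36, 6.87 and 7.08 in rd1 (0.52 ± 0.11, adjusted p = 0.00717, limma). Tyrobp read 6.86, 7.05 and 7.21 in WT and 7.60, 7.42 and 7.30 in rd1 (0.40 ± 0.10, adjusted p = 0.0424). Both show rd1 replicate 1 as the highest array. Over the whole list the mean level was 6.95, 7.08 and 7.09 in WT and 7.28, 7.13 and 7.20 in rd1, and rd1 replicate 1 was the highest of the 6 arrays for 16 of the 27 genes. Of the 27 differences 23 were above 0, as were 56.0% of those of all genes, and members below 0 included Ctss (-0.14), P2ry12 (-0.09) and Cd14 (-0.06). Without rd1 replicate 1, without WT replicate 1, or in a fit of the PN11 arrays alone, 0 of the 27 were called in the refitted limma model, and 1 was called without WT replicate 2 or after centring. The reactive glia count fell from 5 to 2 without rd1 replicate 1, without WT replicate 2 or in a fit of the PN11 arrays alone, and to 3 without WT replicate 1; Cebpd and Stat3 were called under every alternative. RNA of whole retina was measured, so more cells of a type cannot be told apart from more RNA per cell, nor fewer cells from less RNA.

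**Figure D3:**
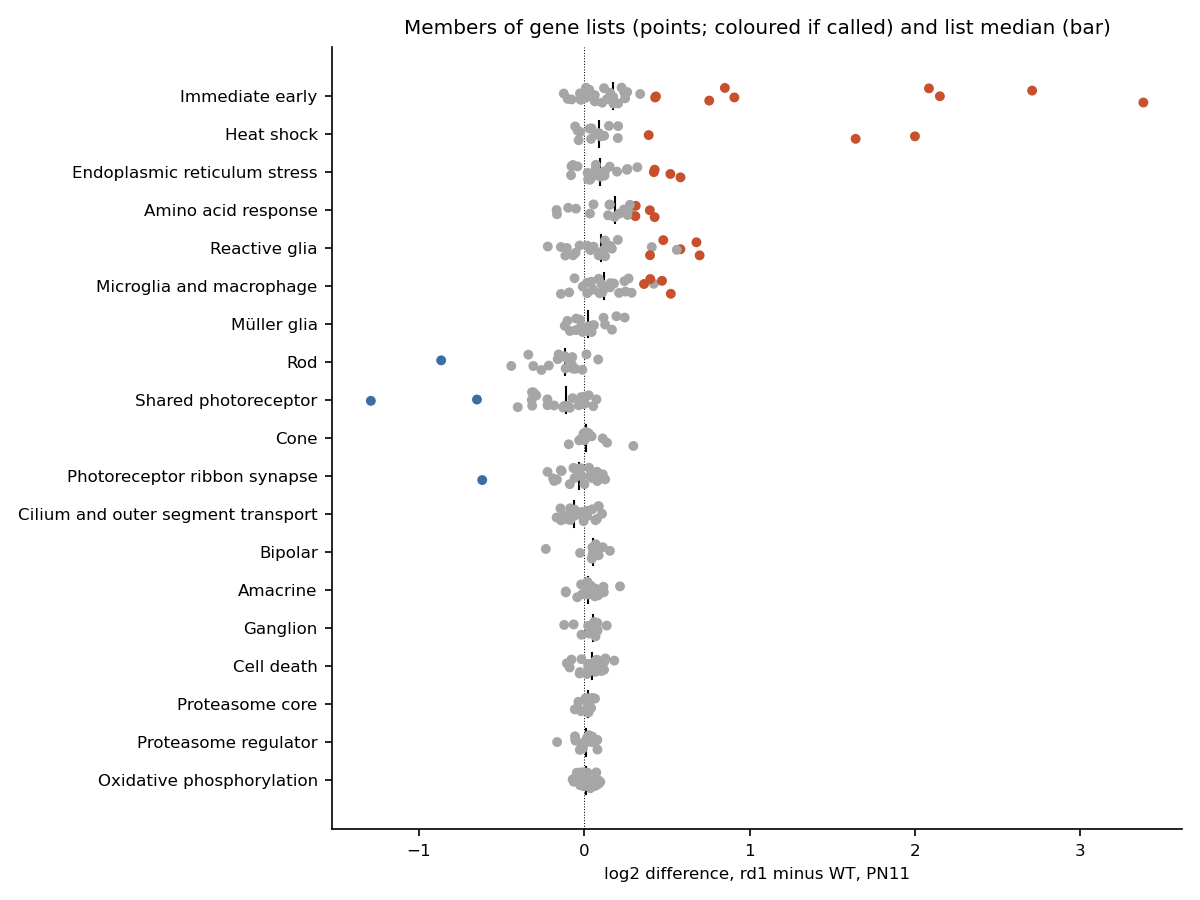
Points are the log2 differences (rd1 minus WT, PN11) of the measured members of 19 gene lists, spread vertically for visibility; red points were called higher, blue points were called lower, grey points were not called, and the black bar is the list median. The immediate early list has the largest rises, and the rod and shared photoreceptor lists have medians below 0 (-0.12 and -0.11).

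Few photoreceptor genes passed the test at PN11. Of 19 measured rod genes, 1 was called lower and 0 higher (median -0.12). The list common to rods and cones had 2 lower and 0 higher calls among 26 genes (median -0.11). Over all genes the median was 0.01, and 0.154% were called lower and 0.434% higher. Guca1b, the guanylate cyclase activator GCAP2, was the rod gene: it read 12.76, 12.51 and 12.28 in WT and 11.89, 11.55 and 11.51 in rd1, a 1.82-fold lower level (-0.87 ± 0.16, adjusted p = 0.00178, limma). Fscn2, the retinal fascin that bundles actin in photoreceptors, read 8.02, 8.16 and 7.60 in WT and 7.38, 6.97 and 7.47 in rd1 (-0.65 ± 0.13, adjusted p = 0.00481). WT replicate 3 and rd1 replicate 3 lay close to each other, and Fscn2 was not called without WT replicate 2 or without rd1 replicate 2. Pdzph1, a protein with PDZ and pleckstrin homology domains, read 9.55, 9.10 and 8.97 in WT and 8.23, 7.85 and 7.67 in rd1. It had the largest fall after Pde6b, 2.45-fold (-1.29 ± 0.19, adjusted p = 2.08e-05).

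Called or not, 17 of the 19 rod genes had differences below 0, as did 44.0% of all genes. For 8 of the 19 every rd1 array lay below every WT array, against 4.97% of all genes. Susd3 differed by -0.44 (adjusted p = 0.186, limma), the channel subunit Cnga1 by -0.34 (adjusted p = 0.148), and of the shared genes the cyclase activator Guca1a by -0.40 (adjusted p = 0.0719) and Rp1l1 of the outer segment axoneme by -0.32 (adjusted p = 0.0877). The rod markers' mean level was 12.14, 12.02 and 11.92 in WT and 11.87, 11.89 and 11.78 in rd1, so the lowest WT array and the highest rd1 array almost met. With array weights, 4 rod genes and 5 shared genes were called lower at PN11. At PN13, 15 of the 19 rod genes and 20 of the 26 shared genes were called lower. Cone markers were not called (0 of 15 by limma, 1 at an unadjusted p under 0.05; median 0.01).

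Lrp4, a receptor of agrin that organises synapses, was the called gene among 25 of the photoreceptor ribbon synapse list (background 0.154% lower). It read 9.25, 9.35 and 9.16 in WT and 8.31, 8.86 and 8.75 in rd1 (-0.62 ± 0.09, 1.53-fold lower, adjusted p = 1.02e-05, limma). In the cyclic nucleotide list, 2 of 26 were lower (Pde6b and Guca1b) and 1 was higher (background 0.154% and 0.434%). The higher gene was the phosphodiesterase Pde10a. It read 7.94, 7.89 and 7.71 in WT and 8.23, 8.16 and 8.24 in rd1 (0.36 ± 0.07, adjusted p = 0.0037, limma). Pde10a did not differ by a called amount at PN13 (0.05). No gene of calcium handling (26 measured) or of cilium and outer segment transport (27 measured) was called by limma; 2 and 0 had an unadjusted p under 0.05.

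The other large falls were in genes of no list. Cltrn, collectrin, an amino acid transporter partner, read 7.25, 7.37 and 7.36 in WT and 6.20, 6.51 and 6.53 in rd1 (-0.91 ± 0.15, 1.88-fold lower, adjusted p = 0.000365, limma). Glb1l2, a protein like beta-galactosidase, read 10.52, 10.35 and 10.32 in WT and 9.56, 9.51 and 9.63 in rd1 (-0.83 ± 0.11, adjusted p = 8e-06). The separation of Glb1l2 was wide, larger than the spread within either genotype. Hcls1, a cortactin-like protein known from blood cells, read 6.86, 6.47 and 6.23 in WT and 5.69, 5.90 and 5.70 in rd1 (-0.75 ± 0.12, adjusted p = 0.000201). Smaller falls were those of the transporter Abca13 (-0.60), the death inhibitor Faim (-0.53), the spindle protein Gpsm2 (-0.53), the magnesium transporter relative Nipal1 (-0.49), the tight junction protein Cldn7 (-0.48) and the Rab5 exchange factor Rabgef1 (-0.46).

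For 29 of the 41 lists no member was called. The series title names the proteasome, and none of its genes was called at PN11: 0 of 14 core subunits (median 0.02), 0 of 21 regulator subunits (0.01) and 0 of 7 immunoproteasome genes (0.06) were called by limma, with 0 in each at an unadjusted p under 0.05. The largest difference among the core subunits was 0.06 for Psmb7 and among the regulators -0.16 for Psmd10. Transcripts were measured, so these values do not show proteasome protein or activity. Oxidative phosphorylation (30 genes, median 0.01), cell death (25 genes, median 0.05) and oxidative stress (19 genes, median 0.03) also had no called member by limma, with 0, 1 and 2 at an unadjusted p under 0.05. In the cell death list the largest difference was that of Cdkn1a (0.18, adjusted p = 0.816). Bipolar, amacrine, ganglion and horizontal cell markers had medians between 0.02 and 0.05 and no called member.

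Called genes that neighbour Pde6b on the chromosome are given separately. Within 20 Mb of Pde6b on chromosome 5, 4 of 400 tested genes were called (1.000%): Pde6b itself, Dipk1a, Zfp33b and Klhl8. On the rest of the chromosome 7 of 731 were called (0.958%), against 0.588% of all genes. Dipk1a, a kinase-like protein of the endoplasmic reticulum, read 8.15, 8.15 and 8.23 in WT and 9.23, 9.46 and 9.29 in rd1 at PN11 (1.15 ± 0.10, adjusted p = 2.77e-10, limma). At PN9 it already differed by 1.67, more than at PN11, and at PN13 by 0.78. Zfp33b, a zinc-finger protein, read 8.18, 8.00 and 7.89 in WT and 7.13, 7.22 and 7.43 in rd1 (-0.76 ± 0.12, adjusted p = 6.3e-05), and differed by -0.90 at PN9, -0.91 at PN12 and -0.90 at PN13. Dipk1a and Zfp33b are, with Pde6b, Fos, Nr4a1 and D930016D06Rik, the 6 genes called at PN11 that were also called in the same direction at PN9.

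PN11 stood between an age with few differences and one with many. At PN9, 7 genes were called (0.0385%), at PN12 154 (0.846%) and at PN13 1364 (7.5%); PN12 has 2 arrays per genotype, so counts of calls are not compared with it. Each age has its own WT and rd1 arrays, and the genes called at PN11 were read on them. Of the 79 higher genes, 54 had a difference above 0 at PN9 and 4 were called higher (0.0275% of all genes). At PN12, 78 were above 0 and 60 were called (0.616% of all genes), and at PN13 all 79 were above 0 and 75 were called (4.09% of all genes). The 4 without a call at PN13 were Pde10a, Serpini2, Stk40 and Zkscan3. Of the 28 lower genes, 14 were below 0 at PN9 and 2 were called lower (0.011% of all genes). All 28 were below 0 at PN12 and at PN13, where 17 and 27 were called (0.231% and 3.41% of all genes), and Alpk2 was the gene without a call at PN13. The fit shares its estimate of the spread over the ages.

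**Figure D4:**
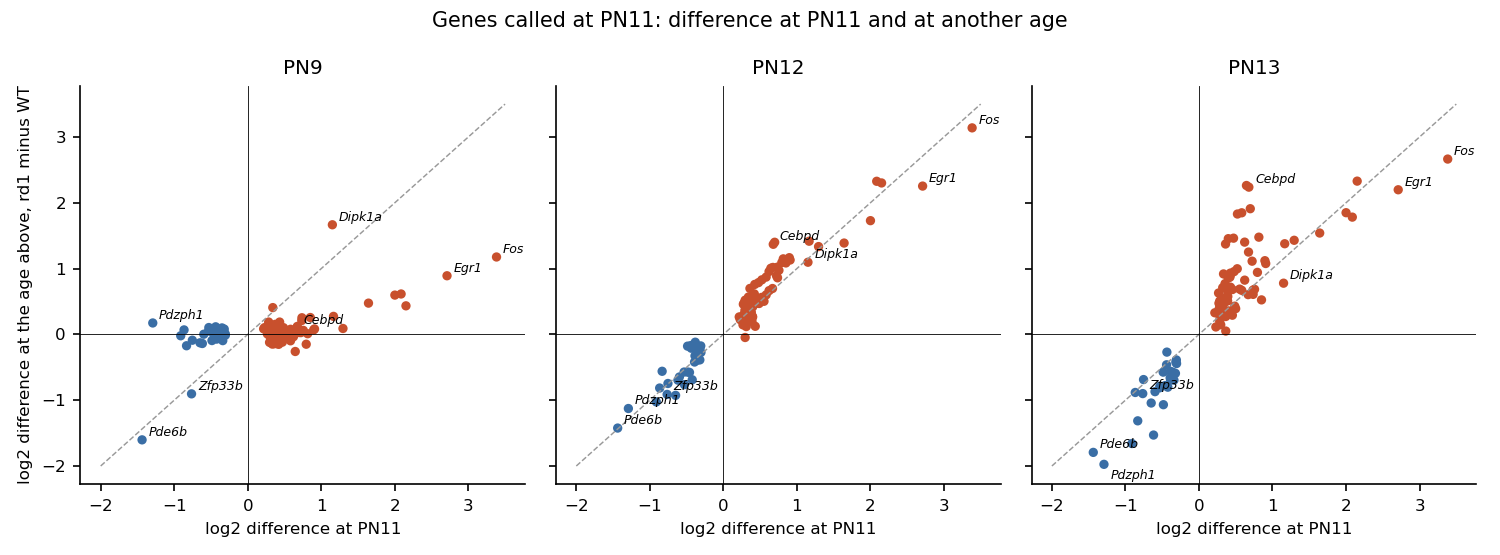
Each point is 1 of the 107 genes called at PN11 (red higher, blue lower), with its log2 difference at PN11 on the horizontal axis and at PN9, PN12 or PN13 on the vertical axis; the dashed line marks equal differences. At PN9 97 of the 107 points lie within 0.4 of 0; beyond it are Dipk1a (1.67), Pde6b (-1.60), Fos (1.18), Zfp33b (-0.90), Egr1 (0.89), Nr4a1 (0.61), Hspa1b (0.60), Hspa1a (0.48), Fosb (0.43) and D930016D06Rik (0.41). At PN12 and PN13 the points follow the sign of PN11 except 1 higher gene at PN12.

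The change of the difference between ages was tested directly. From PN9 to PN11 it changed for 27 genes (0.148% of those tested), 23 upwards (0.126%) and 4 downwards (0.022%), and all 27 were also called at PN11. Both tests use the PN11 arrays, so this overlap is not independent evidence. Fos changed by 2.21: it already differed by 1.18 at PN9, where the WT arrays read 7.83, 8.01 and 7.83 and the rd1 arrays 9.21, 9.14 and 8.84. In Twsg1 the change was 1.21 from almost no difference at PN9. Pdzph1 changed by -1.47 and read 6.48, 6.43 and 5.89 in WT and 6.56, 6.51 and 6.25 in rd1 at PN9; both genotypes then gained intensity, WT to a mean of 9.21 and rd1 to a mean of 7.92 at PN11. From PN11 to PN12 no gene passed the threshold in limma or under any alternative tried, and 630 had an unadjusted p under 0.05. From PN11 to PN13 the difference changed for 91 genes (0.5%), 70 upwards (0.385%) and 21 downwards (0.115%).

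Genes of the glial lists were among those that rose further after PN11. Of the 79 higher genes, 15 grew further by PN13: Asns, C1qc, Cd68, Cebpb, Cebpd, Edn2, Fcrls, Lrrc2, Ly86, Pcolce, Prtg, Sox30, Stat3, Tmem176a and Tyrobp. Cebpb, Cebpd, Edn2 and Stat3 belong to the reactive glia list and C1qc, Cd68, Ly86 and Tyrobp to the microglia and macrophage list. Cebpd went from a difference of 0.68 at PN11 to 2.24 at PN13, and Cd68 from 0.52 to 1.83. At PN13 23 of 27 microglial genes were called higher. None of the 9 called immediate early genes was among the 15: Fos differed by 3.14 at PN12 and 2.66 at PN13, and Nr4a1 by 2.33 and 1.78. Of the 28 lower genes, Lrp4 (-0.62 at PN11, -1.53 at PN13) and Cldn7 (-0.48, -1.07) fell further.

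**Figure D5:**
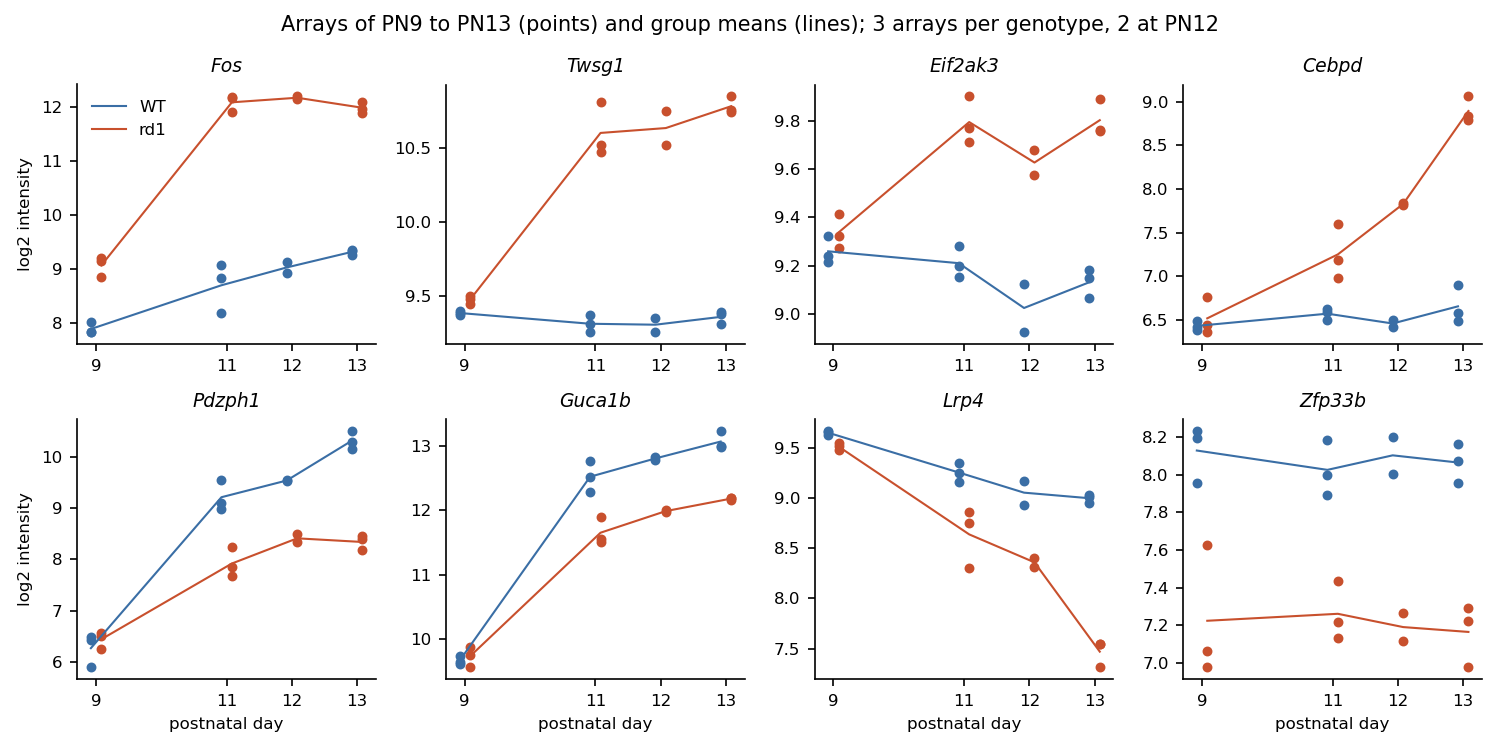
Points are log2 intensities of the arrays of PN9, PN11, PN12 and PN13 and lines join group means, for WT and rd1; each panel has its own vertical scale, which does not start at 0. Fos is already apart at PN9 and further apart at PN11, while Twsg1 and Eif2ak3 separate between PN9 and PN11. Cebpd keeps rising to PN13, and Pdzph1 and Guca1b rise in both genotypes but less in rd1. Lrp4 falls in both and further in rd1, and Zfp33b differs at all 4 ages.

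The lower genes were mostly genes that WT retina gains at this age. From PN9 to PN13 in WT, 22 of the 28 were called as rising (78.6%, against 10.9% of all genes), 2 as falling (Lrp4 and Trib1), and their median change was 0.75 against -0.02 over all genes. Pdzph1 rose by 4.04 in WT, Guca1b by 3.39, Gpsm2 by 2.09, Glb1l2 by 1.74, Fscn2 by 1.53 and Cltrn by 1.50. In rd1 Guca1b also rose steeply, from 9.89, 9.76 and 9.57 at PN9 to 11.89, 11.55 and 11.51 at PN11. Of the 79 higher genes, 20 rose in WT over the same ages (25.3%) and 12 fell (15.2%, against 9.76% of all genes). Centring on amacrine and ganglion cell genes shifted the median WT change of all genes to -0.24. Then 20 of the 28 lower genes rose in WT, and 12 of the 79 higher genes rose and 37 fell. The centring genes change with age themselves: before centring their median WT change was 0.09 (amacrine) and 0.34 (ganglion). Centring on them therefore lowers the WT change of every gene.

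Other probe sets gave a check on the probe set that stood for each gene. Of the 107 called genes, 56 have further probe sets, 85 in all, and 82 of these 85 had the same sign. The exceptions were in Sufu, Tagln2 and Tubb6, where a dimmer probe set differed by 0.02, -0.08 and -0.02. Adjusted over all 34945 probe sets, for 17 genes a further probe set was also called in the same direction and for 0 in the opposite direction. Of the 107 genes, 40 were called under every alternative that tested them, 30 higher and 10 lower. For 36 of the 40 these were all 14 alternatives; for Fosb, Abca13, Cltrn and Hcls1 they were 13, since leaving out the dimmest 30% of genes removed them. The 40 include all 15 of the largest rises and 10 of the 15 largest falls.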

How the data were processed

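Arrays held 45037 probe sets. The deposited values are intensities on a linear scale, 1 per probe set and array, which the authors summarised with RMA per the submitters' processing notes; the version, and whether all arrays were normalized together, are not given in the sources used here. Intensities ran from 9.37 to 21708, with medians per PN11 array of 130.0 to 133. Here log2 of the deposited intensities was taken, with no minimum. Detection calls were not used here. The number of arrays limits the precision.

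Gene symbols came from the platform annotation: 34945 probe sets name 1 symbol, 932 several and 9160 none, and those with several or none were left out. Where several probe sets named a gene (9010 genes), the gene was read from the brightest by its average log2 intensity across the 54 arrays. limma 3.58.1 (R 4.3.3) was fitted with 1 mean per genotype and age to the 50 arrays of the 10 ages that have at least 2 arrays per genotype (30 residual degrees of freedom), with moderated variances and an intensity trend. P-values are 2-sided and adjusted by Benjamini-Hochberg over 18193 genes per contrast, threshold 0.05. The exact permutation test of 3 arrays against 3 cannot go below 0.10, so none was used. The procedure was also run on simulated arrays, with spread drawn independently for each gene and no effect shared by the genes of an array. That run therefore says nothing about effects of a single array, such as rd1 replicate 1.

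The comparison, the 41 gene lists (853 entries, 782 measured), the promoter motifs and the naming rule were chosen with earlier results of these data known; lists are described by counts and medians, with no set test. The rule named the 15 largest called rises and falls, the 4 most different members of each list (called members first), the 5 largest changes each way per change test, and Pde6b; RIKEN clones and predicted genes were passed over. Jun, Arc, Egr3, Nr4a2, Npas4, Sik2, Zfp472, Tagln2, Stard10, Rfx2, Pcolce, Lrrc2, Tubb6, Dip2b, Hspa8, Dnajb1, Hsp90aa1, Ctss, P2ry12, Cd14, Ddit3, Atf4, Xbp1, Hspa5, Gfap and the genes given as lost or shared calls were named after their values were seen. The settings varied were quantile normalization, centring on amacrine and ganglion cell markers, dropping the dimmest 30%, averaging a gene's probe sets, no intensity trend, array weights, a replicate block, the compared arrays alone, and leaving out each array.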

Additional observations from a re-analysis of the deposited data

Results flagged for a closer look

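The difference between rd1 and WT was tested for change between ages, each with its own arrays, and the changes that passed the threshold (limma, adjusted over all genes) are given here as changes of the log2 difference. They are given as values, and their causes were not tested.

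From PN9 to PN11 the difference changed for 27 genes. Among the immediate early genes and their regulators it changed by 2.21 for Fos, 1.82 for Egr1, 1.72 for Fosb, 1.47 for Nr4a1, 0.94 for Nab2, 0.83 for Junb, 0.70 for Ier2 and 0.51 for Dusp5. Stress genes followed at 1.40 for Hspa1b, 0.57 for Trib3, 0.57 for Chac1, 0.50 for Eif2ak3 and 0.46 for Asns. The change was 1.21 for Twsg1, 0.91 for Pcolce, 0.89 for Ctnnal1, 0.83 for Lonrf1 and 0.80 for Krt18. Downward changes were -1.47 for Pdzph1, -0.63 for Gpsm2, -0.60 for Abca13 and -0.58 for Faim. The adjusted p of these named genes ran from 1.33e-08 (Fos, Fosb, Nr4a1 and Twsg1) to 0.0451 (Krt18, Chac1, Faim and Abca13).

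Between PN11 and PN13 the difference changed for 91 genes. Glial, immune and related genes changed by 2.13 for S100a6, 1.56 for Cebpd, 1.49 for Gfap, 1.31 for Lyz1, 1.31 for Cd68, 1.27 for Edn2, 1.21 for Cebpb, 1.06 for Tyrobp, 1.01 for C1qc, 0.99 for Ly86 and 0.48 for Stat3. Pcolce changed by 1.62, the metallothionein Mt1 by 1.15, the lysosomal protease Ctsz by 0.69, Asns by 0.47 and Crym by 0.42. Downward changes were -1.48 for Rgr, an opsin of the pigment epithelium and Müller glia, -0.91 for Lrp4, -0.68 for Grk1, the rhodopsin kinase, -0.65 for the transporter Slc16a6, -0.63 for the transcription factor Prdm1 and -0.58 for Cldn7. At PN11 itself Gfap, Lyz1, Rgr, Grk1 and Prdm1 were not called, with differences of 0.41, 0.16, 0.05, 0.01 and -0.03. S100a6 (0.56), Mt1 (0.39), Ctsz (0.30) and Crym (0.19) were not called at PN11 either, nor was Slc16a6.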

How the results depend on the processing

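Each of the 107 genes called at PN11 kept the sign of its PN11 difference under every alternative that tested it. The balance of rises and falls in WT from PN9 to PN13 did turn: over all genes it was 1985 rises and 1775 falls, but 2009 and 2276 with quantile normalization and 959 and 10055 after centring, which also turned it among the 79 higher genes (20 and 12, then 12 and 37). The centring genes had median WT changes of 0.09 (amacrine) and 0.34 (ganglion) over these ages, so centring on them lowers the WT change of every gene. Of the 107 calls, leaving out the dimmest 30% of genes lost 0 of the 92 it tests, array weights lost 0, the replicate block 11, quantile normalization 7, the absence of an intensity trend 4, the mean of probe sets 19, centring 26 and the compared arrays alone 53; leaving out an array lost between 19 (rd1 replicate 2) and 50 (rd1 replicate 1). Array weights raised the count of calls from 107 to 221 (137 higher, 84 lower), the PN9 to PN11 change from 27 to 88, the PN11 to PN13 change from 91 to 196 and the PN9 calls from 7 to 15. The compared arrays alone gave 61 calls at PN11, 38 of them higher. Quantile normalization gave 43 lower calls in place of 28. Without each array in turn, calls at PN11 ranged from 57 to 93, 40 to 71 of them higher (51 without WT replicate 3) and 17 to 27 lower; the PN9 to PN11 change from 16 (without rd1 PN11 replicate 1) to 31, the PN11 to PN13 change from 57 (without rd1 PN11 replicate 2) to 101, and PN12 from 62 to 133, with 70 without WT replicate 1, 66 without rd1 replicate 1 and 62 without rd1 replicate 2, against 154. For the change in WT from PN9 to PN13, 3760 genes were called, 11014 after centring and 2028 with the replicate block. The labels do not say whether same-numbered arrays were paired. At PN11 the deviations of same-numbered arrays correlated at 0.10, -0.29 and 0.04, and those of differently numbered arrays at -0.19 to 0.15. At PN9 the highest values were 0.49 for a same-numbered and 0.49 for a differently numbered pair. With 3 arrays per genotype, whose deviations sum to 0, these values cannot decide on pairing. With the replicate block 110 genes were called, 96 of them among the 107. Centring turned the split of 79 higher and 28 lower into 53 and 41. Dim genes and small differences are limited by the number of arrays; signal over background was not used.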
